A study of Mus musculus with 4 samples.

Results

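The genes described here encode the protein parts of the cytosolic ribosome. They were chosen by symbol alone: rows beginning Rpl (large subunit) or Rps (small subunit) followed by a digit, by p in Rpl or by a in Rps, leaving out pseudogene symbols with a -ps suffix, the Rps6k kinases, Rps19bp1 and Rpl7l1. The rule took 89 of the 17194 gene symbols in the count table, 52 for the large and 37 for the small subunit. Of these, 77 are the standard genes of the ribosome, 46 large and 31 small, and 12 are paralogs or retained copies by name, 6 in each subunit. The samples were primary mouse macrophages grown from bone marrow and treated with RANKL, the cytokine that starts osteoclast formation, for 2 days. The control group was treated with a control siRNA (siControl, 2 libraries) and the other group with an siRNA against Hells (siHells, 2 libraries), so RANKL was shared by every library. Polyadenylated RNA was sequenced and reads were counted per gene. Strain, sex, age and the number of animals or cultures are not stated in the labels, and an siRNA lowers its target rather than removing it.

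The ribosome joins a small subunit, which binds mRNA and checks codons against tRNAs, to a large subunit, which forms peptide bonds and guides the new chain through an exit tunnel. Each subunit needs its proteins in near-equal numbers, and most of their mRNAs begin with a 5' terminal oligopyrimidine (TOP) tract, a C followed by a run of C and T, through which mTORC1 and the RNA-binding protein Larp1 control their translation and stability. In macrophages and their precursors these mRNAs are among the most abundant transcripts, since growth and differentiation both draw on protein synthesis.

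The start windows of 8 genes are shown first because the TOP tract is what these mRNAs are best known to share, and because the genes differ in how they behaved. Each window runs 5' to 3' along the gene's strand, from 15 bases before to 15 bases from the annotated RefSeq start (GRCm38.p6), and capitals mark its longest run that opens with C and goes on with at least 4 pyrimidines, where it has one.
Rps27, chr3:90213634-90213663, minus strand: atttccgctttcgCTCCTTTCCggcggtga
Rps6, chr4:86857353-86857382, minus strand: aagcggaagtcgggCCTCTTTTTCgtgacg
Rpl12, chr2:32961697-32961726, plus strand: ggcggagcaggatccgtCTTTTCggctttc
Rps26, chr10:128626492-128626521, minus strand: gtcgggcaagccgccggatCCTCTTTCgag
Rps9, chr7:3704026-3704055, plus strand: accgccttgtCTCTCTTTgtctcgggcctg
Rpl39, chrX:37085208-37085237, minus strand: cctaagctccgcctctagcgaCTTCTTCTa
Rpl39l, chr16:10170213-10170242, plus strand: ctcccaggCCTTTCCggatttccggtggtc
Rplp0, chr5:115559452-115559481, plus strand: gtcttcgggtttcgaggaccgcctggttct

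Among these 8, the annotated first base of Rps27 and Rps6 was a C with at least 4 pyrimidines after it. The tract began a few bases downstream of it in Rpl12, Rps26 and Rpl39 and upstream in Rps9 and Rpl39l, and the Rplp0 window held none. The promoter table covered 57 of the 77 standard genes, some with several starts, and 13 of them (22.8%) had such a tract exactly at a start. This was so for 7 of 34 large (20.6%) and 6 of 23 small subunit genes (26.1%). The share was 3.10% of the 11195 other genes tested and 3.01% of all 27025 genes of the table, on the gene's own strand. Within 10 bases of a start, the share was 59.6% of the standard genes. It was 37.3% of the other genes tested and 34.4% of all genes of the table. No mitochondrial ribosomal protein gene of 69 had the tract exactly at the start, but 31 of them (44.9%) had it within 10 bases. A match describes these letters at annotated starts, which can be several bases off, and is no evidence of a working TOP element; a missing match says only that the letters are not there.

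Total counts were between 48873635 and 55642819 per library, and replicate libraries differed beyond counting noise. The labels do not state whether replicates were separate cultures, so p-values measure only the spread among these samples, and that spread may be technical. The labels passed their check: Hells had 1613 and 1501 counts in siControl against 823 and 785 in siHells (log2 fold change -0.99, adjusted p = 5.96e-09). Adjusted p-values throughout come from edgeR's quasi-likelihood test, adjusted by Benjamini-Hochberg over the 15651 genes that passed a filter on low counts, and "rose" and "fell" mean an adjusted p under 0.05, in siHells relative to siControl. Levels are CPM, counts scaled to a common library size with TMM factors. Among the marker lists, the 9 osteoclast markers all fell, with a summed level of 8588 and 8653 CPM in siControl and 1416 and 1376 CPM in siHells. Of the 9 macrophage markers, 8 rose and 1 fell. Their sums were 15672 and 15813 CPM in siControl and 24099 and 23410 CPM in siHells. Lyz2 made up most of these sums, with 11297 and 11396 CPM in siControl and 17576 and 16992 CPM in siHells. For comparison with all these marker counts, 29.5% of all genes tested fell and 29.0% rose. The 8 stromal markers summed to 1002 and 1026 CPM in siControl and 1804 and 1775 CPM in siHells, 7 rising and 1 falling. The 7 neutrophil markers in the table summed to 309 and 320 CPM in siControl and 278 and 258 CPM in siHells; 4 of them fell and 1 rose. The 5 dendritic markers summed to 18.4 and 19.5 CPM in siControl and 9.50 and 9.08 CPM in siHells, with 1 falling and 2 rising. The lower sum came from Itgax alone, at 13.6 and 14.3 CPM in siControl and 1.11 and 0.634 CPM in siHells, while Flt3 and Zbtb46 rose. The 2 B cell markers summed to 7.15 and 8.01 CPM in siControl and 10.2 and 11.1 CPM in siHells, and none of the 6 T and NK cell or 6 erythroid markers was in the table.

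Ribosomal protein mRNA was lower in siHells almost throughout. All 89 genes passed the low-count filter, and 81 of them fell, 1 rose and 7 did not pass the test. Over all genes tested, 29.5% fell and 29.0% rose. The median log2 fold change was -0.36 over the 89 genes, with an interquartile range of 0.15, against a median of -0.00 and an interquartile range of 0.68 over all genes tested. Among the 1460 other genes with levels in the same range as the standard ones, 557 fell and 636 rose, with a median of 0.02. The marker sums above also differed between the groups, some higher and some lower in siHells, and their part in this fall was not tested. In bulk RNA, fewer cells of a type and less RNA per cell cannot be told apart.

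The shift was small for each gene and even across genes. Of the 46 standard large subunit genes, 46 fell, 2 of them by more than 1.5-fold, 36 by between 1.2- and 1.5-fold and 8 by less than 1.2-fold. Of the 31 standard small subunit genes, 29 fell, 28 by between 1.2- and 1.5-fold and 1 by less. For comparison with both subunits, 29.5% of all genes tested fell. The groups did not overlap, all siHells values being lower, for 83 of the 89 genes, where 39.4% of all genes tested showed this. Against a change of 1.2-fold rather than 0, 57 of the 89 passed as lower and 1 as higher, where 17.3% of all genes tested passed as lower.

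**Figure D1:**
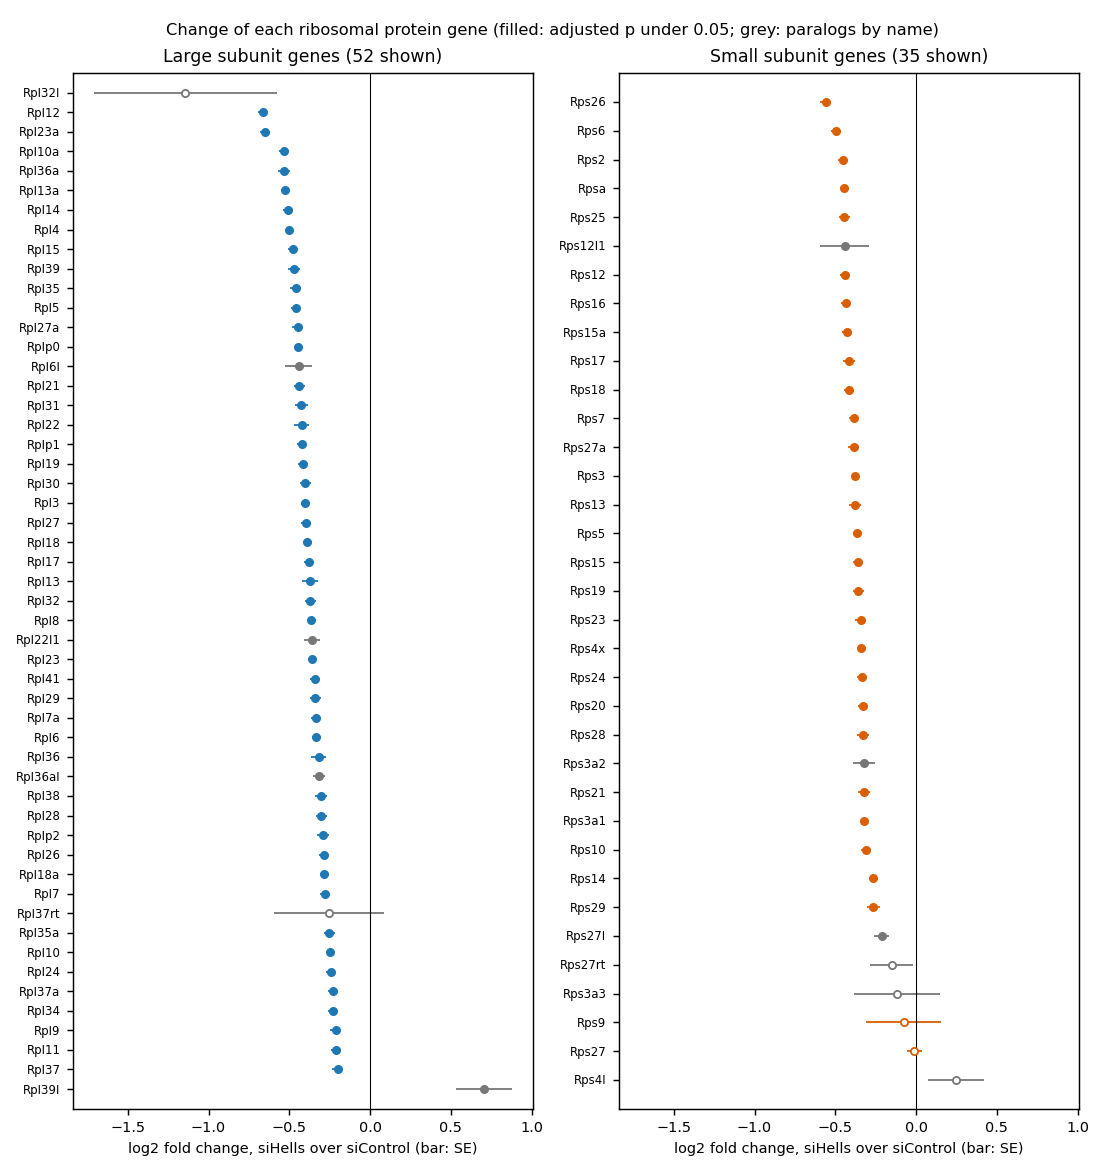
Log2 fold change (x axis, siHells over siControl) of 52 large and 35 small subunit genes, with its standard error as a bar. Filled points passed an adjusted p of 0.05, and grey points are paralogs by name: nearly all coloured points lie between -0.66 and -0.20, while Rps9 and Rps27 lie near 0 and Rpl39l lies to the right.

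Counted over all members, ribosomal protein mRNA took 4.63% and 4.68% of all reads counted in siControl and 3.45% and 3.37% in siHells. The large subunit members took 2.71% and 2.73% in siControl and 2.01% and 1.94% in siHells. The small subunit members took 1.92% and 1.96% in siControl and 1.44% and 1.43% in siHells. All 3 shares were thus lower in each siHells library than in each siControl library. With 2 libraries against 2, no rank or permutation test of a single share can pass 0.05, so none is given.

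The 2 subunits fell by near-equal amounts. The median log2 fold change was -0.37 for the 52 large subunit members and -0.36 for the 37 small subunit members, and -0.37 for each when only standard genes were taken. The difference between the subunit medians, small minus large, was 0.0143, against a standard deviation of 0.00877 between libraries of a group. Within each library, the median deviation of the large subunit members from their own mean over libraries was 0.19 and 0.19 in siControl and -0.15 and -0.22 in siHells. The small subunit members had 0.17 and 0.19 in siControl and -0.16 and -0.21 in siHells. The second siHells library was the lower of the pair for both subunits.

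The ratio of small to large subunit counts, which no scaling of libraries can move, was 0.709 and 0.719 in siControl and 0.719 and 0.740 in siHells. Most of that spread came with 1 gene: without Rps9, a choice made after its values were seen, the ratio was 0.661 and 0.663 in siControl and 0.665 and 0.665 in siHells. The mean difference between groups was 0.0157 with Rps9 and 0.00303 without it.

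**Figure D2:**
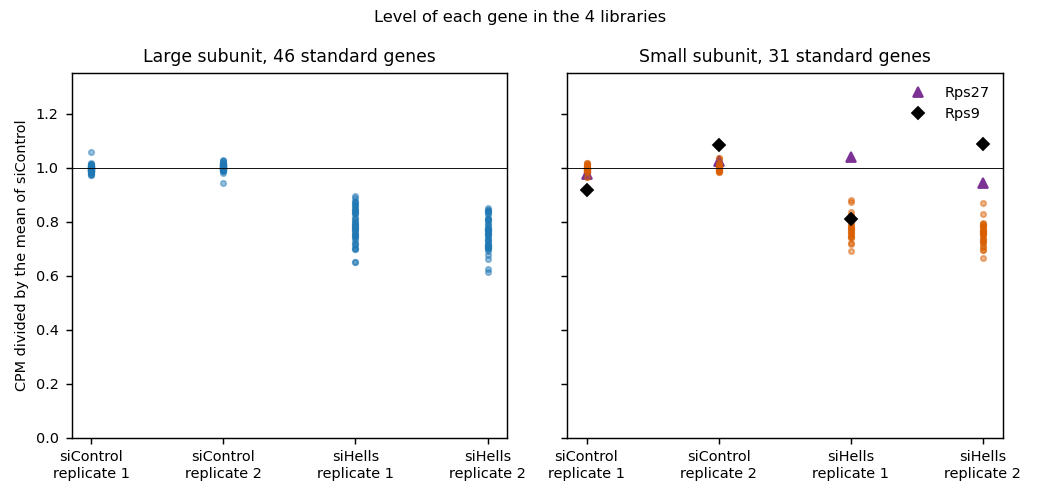
CPM of each standard gene divided by its siControl mean (y axis, no unit) in the 4 libraries (x axis), large subunit at left and small subunit at right. In siHells the points sit below 1 apart from Rps27 in the first library and Rps9 in the second, which are marked by a triangle and a diamond.

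The proteins of the P stalk, which recruits and activates the elongation factors, all fell (4 of 4, median log2 fold change -0.43). For comparison, 75 of the 77 standard genes fell, with a median of -0.37, and 29.5% of all genes tested fell. Rpl12, which sits at the base of the stalk, fell furthest of all standard genes, with 37921 and 35117 counts in siControl against 24525 and 22901 in siHells. These counts stand for 690 and 702 CPM in siControl and 452 and 427 CPM in siHells, so the groups were far apart. On the log2 scale it changed by -0.66 (SE 0.032, adjusted p = 7.54e-11); the gene lies at chr2:32961712-32964045 and hosts the snoRNA gene Snora65 and overlaps Lrsam1 on the other strand. Rplp0, the scaffold of the stalk, had 1553 and 1597 CPM in siControl and 1163 and 1150 CPM in siHells, a log2 fold change of -0.45. Rplp1 changed by -0.42 and Rplp2 by -0.29 on the log2 scale, so that the stalk's acidic proteins, which pair with each other on the ribosome, fell by different amounts; the difference between them was not tested.

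The ring of proteins that lines and rims the polypeptide exit tunnel fell in 10 of 10 cases, with a median log2 fold change of -0.42. Among all standard genes 75 of 77 fell, and among all genes tested 29.5%. Rpl23a, at the rim where the signal recognition particle docks, had 630 and 649 CPM in siControl and 415 and 400 CPM in siHells. Its log2 fold change of -0.65 (SE 0.031, adjusted p = 6.05e-11) was the second largest of the standard genes, and with Rpl12 it was the only standard gene to fall more than 1.5-fold. The gene lies at chr11:78180935-78183584, hosts Snord42a, Snord4a and Snord42b, and overlaps Tlcd1 on the other strand. Rpl4, whose long loop reaches into the tunnel, had 1427 and 1450 CPM in siControl and 1025 and 1006 CPM in siHells (log2 fold change -0.50). Rpl39, the small protein deep in the tunnel, changed by -0.47 and Rpl35 by -0.46 on the log2 scale. The smallest changes of this group were -0.29 for Rpl26 and -0.30 for Rpl38, which is known for its role in translating Hox mRNAs.

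The proteins nearest the peptidyl transferase centre and the tRNA sites fell in 4 of 4 cases, with a median of -0.38. Again, 75 of the 77 standard genes and 29.5% of all genes tested fell. Rpl10a, which forms the mobile L1 stalk where deacylated tRNA leaves, had 454 and 455 CPM in siControl and 320 and 308 CPM in siHells (log2 fold change -0.53, adjusted p = 6.32e-10). Rpl3 changed by -0.40 and Rpl8 by -0.36 on the log2 scale. Rpl10, which joins the subunit in the last steps of its maturation, changed least in this group, with 1050 and 1086 CPM in siControl and 920 and 880 CPM in siHells (log2 fold change -0.25). The groups stayed apart for all 4 genes.

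Rpl5 and Rpl11, which bind 5S rRNA and, when free, hold back the p53 ligase Mdm2, both fell, but by unequal amounts. Rpl5 had 832 and 856 CPM in siControl and 618 and 609 CPM in siHells, a log2 fold change of -0.46 (SE 0.028). Rpl11 had 466 and 463 CPM in siControl and 412 and 390 CPM in siHells, a change of -0.21 on the log2 scale (SE 0.032, adjusted p = 3.77e-05). Among the large subunit's standard genes only Rpl37 (-0.20) changed less than Rpl11, and Rpl9 came next (-0.21). Rpl37, a zinc-binding protein, had 254 and 255 CPM in siControl and 228 and 215 CPM in siHells, and even there the groups did not overlap.

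Outside these lists, the large subunit genes with the largest changes were Rpl36a, Rpl13a, Rpl14 and Rpl15, which lay close together. Rpl36a, next to the exit site of tRNA, changed by -0.53 on the log2 scale. Rpl13a, which is also known for a role outside the ribosome in silencing inflammatory mRNAs of macrophages, had 877 and 887 CPM in siControl and 617 and 610 CPM in siHells, a log2 fold change of -0.52. Rpl14 changed by -0.51 and Rpl15 by -0.48 on the log2 scale. Rpl13 was the least certain call among the large subunit's standard genes: its siControl libraries were at 584 and 521 CPM and its siHells libraries at 429 and 425 CPM, for a log2 fold change of -0.37 (adjusted p = 0.000151). Leaving out siHells replicate 1 or 2 kept its value at -0.38 or -0.36, but the adjusted p became 0.113 or 0.129, so the call was lost. These 5 genes are named here for values already seen.

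In the small subunit, the proteins of the mRNA entry, decoding and exit sites fell in 8 of 8 cases, with a median of -0.36. Among the subunit's standard genes 29 of 31 fell, and among all genes tested 29.5%. Rps26, which touches mRNA upstream of the start codon at the exit, fell furthest of all small subunit genes, with 419 and 405 CPM in siControl and 284 and 275 CPM in siHells. On the log2 scale this was a change of -0.56 (SE 0.032, adjusted p = 7.01e-10), and the gene lies at chr10:128624529-128626506. Rps2 changed by -0.46 and Rps3, at mRNA entry, by -0.38 on the log2 scale. Rps23, which helps to keep decoding accurate, changed by -0.34 and Rps14 by -0.26.

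The proteins of the initiation platform and of signalling to the small subunit fell in 6 of 6 cases, with a median of -0.40. Here too, 29 of the subunit's 31 standard genes and 29.5% of all genes tested fell. Rps6, the classical substrate of the S6 kinases, had 43484 and 40269 counts in siControl against 31232 and 29729 in siHells. It changed by -0.50 on the log2 scale (SE 0.029, adjusted p = 7.73e-10). Rpsa, known also as a laminin-binding protein, changed by -0.45, Rps25, which many viral internal ribosome entry sites need, by -0.44, and Rps19, which is mutated in Diamond-Blackfan anaemia, by -0.36. Rps10 and Rps20, which carry ubiquitin on stalled ribosomes, changed by -0.31 and -0.33. Rps27a, which is made as a fusion with ubiquitin, changed by -0.39.

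Rps27 and Rps9 were the only standard genes that did not pass the test, and they missed it in different ways. Rps27, a zinc-finger protein of the small subunit, had 12407 and 11859 counts in siControl against 13047 and 11722 in siHells. Its level was 231 ± 7.96 CPM in siControl and 230 ± 15.7 CPM in siHells (SD, n = 2 each), so the groups overlapped and their means were almost equal. The log2 fold change was -0.01 with an SE of 0.045 (edgeR adjusted p = 0.852). That SE was within the range of the standard genes that fell, but towards its upper end (0.026 for Rpl4, 0.049 for Rpl13). The sign changed with a correction for gene length (0.19, adjusted p = 0.0112), with one for GC content (0.01) and without siControl replicate 2 (0.03) or siHells replicate 2 (0.06). The gene lies at chr3:90212667-90213648.

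Rps9, which sits near mRNA entry and bears on decoding accuracy, had 69098 and 74500 counts in siControl against 60240 and 80072 in siHells. That is 1257 and 1489 CPM in siControl and 1111 and 1492 CPM in siHells, so the second library of each group was the higher and the groups overlapped fully. The log2 fold change was -0.08, but its SE of 0.23 was several times that of its neighbours (edgeR adjusted p = 0.818), and a fall of the size seen in the rest of the subunit was within 2 SE. The difference between the libraries of a group, second minus first, was 0.24 in siControl and 0.43 in siHells on the log2 scale, the largest of any standard gene in each group. The sign changed without siControl replicate 2 (0.06) or siHells replicate 1 (0.12) and with the length correction (0.08). No annotated snoRNA or coding gene overlaps Rps9, which lies at chr7:3703954-3706897.

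Paralogs and retained copies by name behaved less evenly than the standard genes. Of 12, 6 fell, 1 rose and 5 did not pass the test, where 29.5% of all genes tested fell and 29.0% rose. The median log2 fold change of the 12 was -0.28. Most were rare, with siControl levels per kilobase of transcript between 0.932 and 237 CPM and a median of 17.6 CPM. GENCODE lists 5 of them as protein coding (Rpl22l1, Rpl36al, Rpl39l, Rps27l and Rps27rt) and 7 as processed pseudogenes. Counts of near-identical copies are uncertain, since reads can be assigned to either, and the sources used here do not give how the counting treated such reads.

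Rpl39l, a paralog of Rpl39 best known from the testis, was the only member of the 89 to rise. It had 118 and 136 counts in siControl against 203 and 223 in siHells. That is 2.43 ± 0.404 CPM in siControl and 3.95 ± 0.291 CPM in siHells (SD, n = 2 each), with both siHells libraries above both siControl libraries. The log2 fold change was 0.71 (SE 0.17, edgeR adjusted p = 0.00247), and between 0.53 and 0.89 when 1 library was left out. Its counts were 0.904% and 1.17% of those of Rpl39 in siControl and 2.14% and 2.52% in siHells, as its parent fell. So it stayed a rare transcript beside Rpl39, whose level was 237 and 233 CPM in siControl and 175 and 165 CPM in siHells.

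The coding sequences show how far reads of such a pair can be told apart. They are from GENCODE M21 on GRCm38, 5' to 3' with the stop codon, and capitals in the paralog mark the bases that differ from its parent.
Rpl39, chrX:37082701-37085127, minus strand: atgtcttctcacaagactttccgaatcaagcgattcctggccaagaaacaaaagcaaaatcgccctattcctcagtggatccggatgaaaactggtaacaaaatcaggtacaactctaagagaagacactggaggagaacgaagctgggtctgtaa
Rpl39l, chr16:10174310-10174465, plus strand: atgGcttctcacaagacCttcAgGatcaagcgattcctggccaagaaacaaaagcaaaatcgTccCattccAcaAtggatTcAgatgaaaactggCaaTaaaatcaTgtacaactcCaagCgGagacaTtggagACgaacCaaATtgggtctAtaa
Rps27, chr3:90212725-90213615, minus strand: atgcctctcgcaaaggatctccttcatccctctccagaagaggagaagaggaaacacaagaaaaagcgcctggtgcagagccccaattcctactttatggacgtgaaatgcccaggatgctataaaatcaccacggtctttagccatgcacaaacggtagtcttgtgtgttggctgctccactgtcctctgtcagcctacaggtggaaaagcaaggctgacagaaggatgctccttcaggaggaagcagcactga
Rps27l, chr9:66946175-66949357, plus strand: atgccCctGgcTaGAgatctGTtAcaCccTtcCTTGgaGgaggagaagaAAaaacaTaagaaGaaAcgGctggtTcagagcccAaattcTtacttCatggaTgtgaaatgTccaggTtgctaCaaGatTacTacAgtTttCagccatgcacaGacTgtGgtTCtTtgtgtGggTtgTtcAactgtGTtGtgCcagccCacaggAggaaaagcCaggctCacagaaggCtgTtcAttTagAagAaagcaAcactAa

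Rpl39l differed from Rpl39 at 23 of 156 bases (85.3% identity), with a longest shared run of 38 bases. Rps27l differed from Rps27 at 61 of 255 bases (76.1% identity), with no shared run over 11 bases. The coding sequence of Rps27rt, a single-exon copy that overlaps Osbpl10 on the opposite strand, was identical to that of Rps27 over all 255 bases, so reads from the coding part cannot be told apart. Rpl36al differed from Rpl36a at 39 of 321 bases (87.9% identity).

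Rps27l, a p53-responsive paralog, fell while its parent showed no detectable change. It had 4174 and 3711 counts in siControl against 3615 and 3368 in siHells, a log2 fold change of -0.21 (adjusted p = 0.00103). As a share of the counts of Rps27 it was 33.6% and 31.3% in siControl and 27.7% and 28.7% in siHells, without overlap. With the length correction the value was -0.03 (adjusted p = 0.61). Rps27rt had 417 and 313 counts in siControl against 311 and 364 in siHells, with overlapping groups (log2 fold change -0.15, adjusted p = 0.346).

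Rpl22l1 and Rpl36al fell with their parents. Rpl22l1 had 3551 and 3243 counts in siControl against 2802 and 2639 in siHells (log2 fold change -0.36), and was between 25.7% and 27.9% of Rpl22 in every library. Rpl36al had 6834 and 6238 counts in siControl against 5483 and 5318 in siHells (log2 fold change -0.31). Because Rpl36a changed by -0.53, Rpl36al made up 58.1% and 57.5% of its counts in siControl and 65.3% and 69.4% in siHells.

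Of the 7 processed pseudogenes, Rpl6l, Rps12l1 and Rps3a2 fell, with log2 fold changes of -0.44, -0.44 and -0.32. The Rps12l1 call was lost with the DESeq2 Wald test (-0.43, adjusted p = 0.0789) and with the length correction (-0.24, edgeR adjusted p = 0.166). Against a change of 1.2-fold it did not pass either (edgeR adjusted p = 0.121). Its value was -0.26 without siControl replicate 1 and -0.43 without siHells replicate 2. Rpl32l had 20 and 19 counts in siControl against 15 and 3 in siHells, and its value of -1.14 (adjusted p = 0.0971) rested on the second siHells library: it was -0.42 without it and -2.68 (adjusted p = 0.00936) without the first. Rps4l had 251 and 173 counts in siControl against 295 and 221 in siHells, with overlapping groups (0.25, adjusted p = 0.238), and passed as higher only without siHells replicate 2 (0.43, adjusted p = 0.0377). Rpl37rt had 329 and 193 counts in siControl against 287 and 162 in siHells, so its libraries differed more within than between groups (-0.25, adjusted p = 0.571). It passed as lower only without siHells replicate 1 (-0.72, adjusted p = 0.00808). Rps3a3 stayed near 1 CPM, with 59 and 54 counts in siControl against 58 and 49 in siHells (-0.12, adjusted p = 0.728).

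The levels of the members can be compared between genes only per length, here as CPM per kilobase of the shortest consensus coding transcript. On that scale the standard large subunit genes ranged from 305 to 1446 CPM per kilobase in siControl, with a median of 658. The standard small subunit genes ranged from 109 to 1828 CPM per kilobase, with a median of 850. In siHells the medians were 533 and 644 CPM per kilobase. The highest large subunit levels were those of Rpl41 (1446), which encodes the shortest ribosomal protein, Rpl10 (1337) and Rplp1 (1305 CPM per kilobase). The highest small subunit levels were those of Rps9 (1828), Rps24 (1806) and Rps12 (1416 CPM per kilobase). The order of Rps9 and Rps24 rests on 1 library, since in siControl replicate 1 Rps24 was the higher on this scale. The lowest standard value, for Rps20, rests on an annotated transcript of 3706 bases, so its level on this scale depends on which transcript the cells made.

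**Figure D3:**
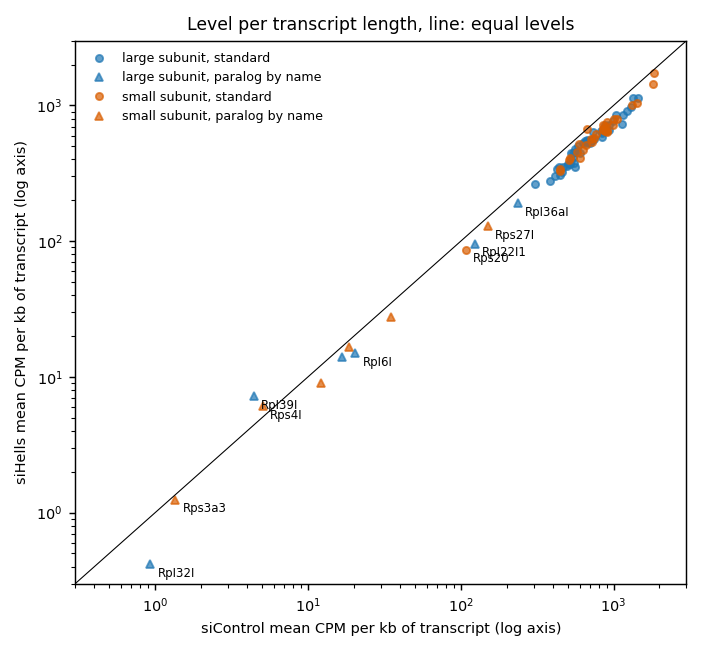
Mean level of each of the 89 genes per kilobase of transcript in siControl (x axis) and siHells (y axis), in CPM per kilobase on log axes, with circles for standard genes and triangles for paralogs by name. Standard genes other than Rps20 sit between 305 and 1828 on the x axis and nearly all below the line of equal levels; Rpl39l and Rps4l are the points above it.

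Transcript length moved with the fold change, in opposite directions inside and outside the ribosome. Across the 77 standard genes, the correlation of log2 fold change with log10 transcript length was -0.26 (Pearson) and -0.30 (Spearman), and that with GC content was 0.05 (Pearson). Across 14521 other genes it was 0.10 and 0.16. These are descriptions across genes of the same 4 libraries, which are not independent replicates. Other genes with transcripts under 600 bases had a median log2 fold change of -0.21 (1070 genes), against -0.34 for the 29 standard genes of that length. From 600 to below 900 bases the medians were -0.15 (1029 other genes) and -0.38 (26 standard genes). From 900 to below 1500 bases they were -0.10 (2104) and -0.40 (17). At 1500 bases and over they were 0.04 (10318 other genes) and -0.45 (5 standard genes). After a correction for the length trend over all genes, 69 of the 89 members passed as lower and 2 as higher (Rpl39l and Rps27). Of the 14610 genes tested with that correction, 4390 passed as lower and 4216 as higher. The subunit medians were then -0.22 (large) and -0.21 (small). Among the standard genes that lost their call were Rpl9, Rpl11, Rpl26, Rpl34, Rpl35a, Rpl37, Rpl37a, Rplp2 and Rps29.

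Position and gene structure divided the standard genes little. The 30 that host an annotated snoRNA gene had a median of -0.39 on the log2 scale, the other 47 one of -0.36. The 18 that overlap another coding gene had a median of -0.41 and the other 59 a median of -0.36. The 4 genes on the X chromosome, Rpl10, Rpl36a, Rpl39 and Rps4x, had a median of -0.40. The 77 genes lie on 19 chromosomes, with 14 on chromosome 7. The 13 with a TOP tract exactly at a start had a median of -0.32 and the 44 without it -0.38; with the tract within 10 bases, a window chosen after the data were seen, the order was the other way, -0.41 (34 genes) against -0.36 (23 genes).

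Ribosomal proteins that the name rule missed were examined too. Rack1, the small subunit's signalling scaffold, changed by -0.39 on the log2 scale. Fau, which makes the small subunit protein eS30, changed less: it had 23981 and 21625 counts in siControl against 22053 and 21203 in siHells (log2 fold change -0.11, adjusted p = 0.00373), and it was at 0.07 (adjusted p = 0.0695) with the length correction. The pseudogene rows with a -ps suffix, of which 112 of 140 passed the filter, had a median of -0.42, and 41 of the 112 (36.6%) fell, where 29.5% of all genes tested did. Those 140 rows held between 1.4% and 1.6% as many counts as the members in each library.

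The ribosome of the mitochondrion, which is built from a separate gene set, moved in the same direction. Of its 78 genes 73 fell and 1 rose, where 29.5% of all genes tested fell and 29.0% rose. The median log2 fold change of the 78 was -0.44. Their interquartile range was 0.33, against 0.13 for the 77 standard cytosolic genes. They took 0.293% and 0.294% of all counts in siControl against 0.204% and 0.200% in siHells.

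**Figure D4:**
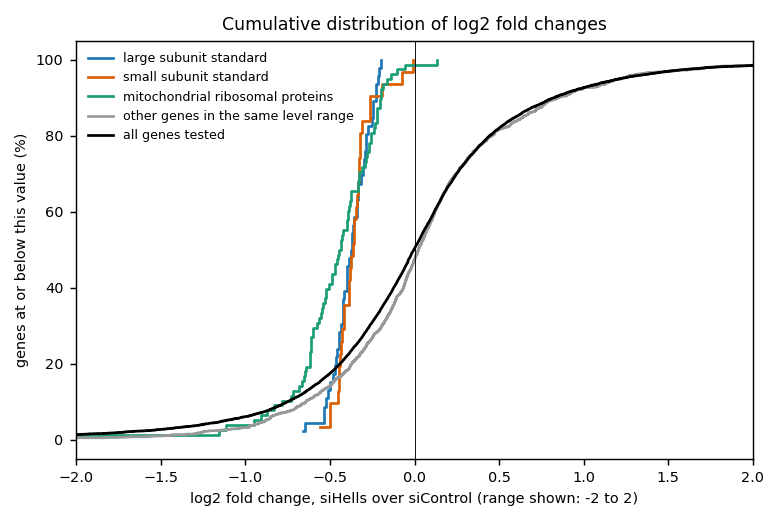
Cumulative share of genes (y axis, %) at or below a log2 fold change (x axis, siHells over siControl). The curves of the 46 large and 31 small subunit genes climb steeply around -0.37, the 78 mitochondrial ribosomal proteins climb more gradually around -0.44, and the 1460 other genes of like level and all 15651 genes tested cross their middle near 0.

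Other RNAs known to start with a TOP tract fell with the ribosomal proteins. Of 22, 20 fell, 1 rose and 1 did not pass the test, where 29.5% of all genes tested fell and 29.0% rose. The median log2 fold change of the 22 was -0.37. The list holds mRNAs of translation factors, a few other mRNAs and the noncoding snoRNA host Gas5 (log2 fold change -0.22). Vim, the intermediate filament vimentin, had the largest fall (-0.93), followed by Hnrnpa1 (-0.63), Pabpc1, the cytoplasmic poly(A)-binding protein (-0.61), the nucleolar chaperone Npm1 and Pabpc4 (both -0.56). The elongation factor Eef1a1 had 409317 and 380692 counts in siControl against 303853 and 305087 in siHells (log2 fold change -0.41). Tpt1, the translationally controlled tumour protein, went the other way, with 97353 and 88441 counts in siControl against 118574 and 113882 in siHells (log2 fold change 0.28, adjusted p = 1.02e-07). Eif3e, a subunit of initiation factor eIF3, was at -0.06 (adjusted p = 0.167).

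Genes that chaperone ribosomal proteins or finish the subunits fell in most cases. Of 18, 12 fell, 2 rose and 4 did not pass the test, where 29.5% of all genes tested fell and 29.0% rose. The median of the 18 was -0.26. Grwd1, the chaperone of Rpl3, changed by -0.66, Rrs1, which helps to load Rpl5, Rpl11 and 5S rRNA, by -0.46, and Heatr3, which imports Rpl5, by -0.41. Sbds, which with Efl1 removes Eif6 from the new large subunit, rose by 0.20 (adjusted p = 0.00597), and the export adaptor Nmd3 rose by 0.16 (adjusted p = 0.0158). With library totals as the scale, neither rise passed the test (Sbds 0.13, adjusted p = 0.0636; Nmd3 0.09, adjusted p = 0.167). With the length correction Nmd3 was at 0.0084 (adjusted p = 0.906). Without siControl replicate 2 neither passed (0.16, adjusted p = 0.0645; 0.15, adjusted p = 0.0907), and without siHells replicate 1 Nmd3 did not (0.12, adjusted p = 0.0891).

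A list of 21 genes held mTORC1, which controls the translation of TOP mRNAs, and regulators that act on ribosomal protein genes or mRNAs. Of the 21, 3 fell, 8 rose and 10 did not pass the test, where 29.5% of all genes tested fell and 29.0% rose. The median of the 21 was 0.01. All 3 that fell were among the 6 regulators outside mTORC1. Of the 15 subunits, inputs and targets of mTORC1, a division made after the values were seen, 7 rose and 8 did not pass the test, with a median of 0.07. Ddit4, an mTORC1 inhibitor induced by stress and glucocorticoids, had 336 and 285 counts in siControl against 12174 and 11870 in siHells (log2 fold change 5.24, adjusted p = 1.82e-18). Sesn2, a leucine sensor that restrains mTORC1, rose by 1.09, and Deptor, which binds and inhibits mTOR, by 0.99. Genes that carry mTORC1 activity rose too, by less. Rptor, the subunit that recruits substrates, rose by 0.30 (adjusted p = 5.28e-05), and the S6 kinase Rps6kb2 by 0.29 (adjusted p = 0.00426). Also among the 7 were the mTORC1 targets Eif4ebp2, which rose by 0.47 (adjusted p = 5.75e-09), and Eif4ebp3, by 0.29 (adjusted p = 0.019). Larp1, which binds TOP tracts, fell by 0.20, Cnbp, which binds the same mRNAs, by 0.20, and Myc, a transcriptional driver of ribosomal genes, by 0.30 on the log2 scale. The mTOR kinase itself was at -0.04 (Mtor, adjusted p = 0.501) and the other S6 kinase, Rps6kb1, at 0.01 (adjusted p = 0.876). These are mRNA levels and say nothing of kinase activity. The Cnbp call was lost with the length correction (-0.066, adjusted p = 0.145). With library totals as the scale 8 of the 21 fell, with upper-quartile scaling or the length correction 5 did, and without siControl replicate 1 the number that rose was 5.

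Of the 12 genes listed as rescuing stalled ribosomes or as attaching and removing ubiquitin on ribosomal proteins, 3 fell, 2 rose and 7 did not pass the test, with a median of -0.02, where 29.5% of all genes tested fell and 29.0% rose. With library totals as the scale 5 fell and 1 rose, and with the length correction 5 fell. Usp10, a deubiquitylase of the small subunit, changed by -0.37, Abce1, which splits ribosomes, by -0.28 and Usp36 by -0.15. The Usp36 call (adjusted p = 0.0455) was lost whichever single library was left out, with adjusted p-values from 0.0557 to 0.283 and log2 fold changes from -0.19 to -0.11. Nemf, which recognises stalled large subunits, rose by 0.22 and the ubiquitin ligase Rnf10 by 0.13. With library totals Rnf10 did not pass the test (0.061, adjusted p = 0.144).

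**Figure D5:**
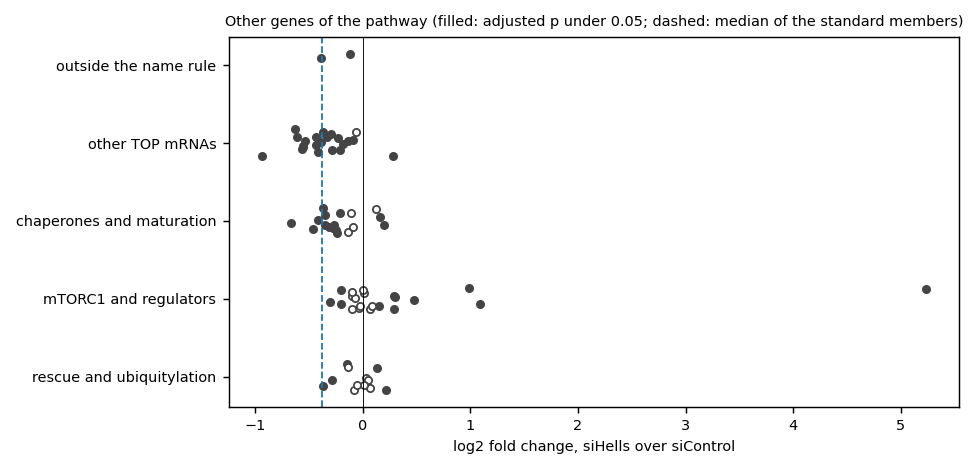
Log2 fold change (x axis, siHells over siControl) of genes of 5 lists around the ribosomal proteins, 1 row of points per list with vertical scatter for legibility only. Filled points passed an adjusted p of 0.05 and the dashed line is the median of the 77 standard ribosomal protein genes: the TOP mRNAs gather around that line, the mTORC1 list is centred near 0, and Ddit4 is the point at 5.24.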

How the data were processed

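The authors deposited raw read counts per gene symbol in 1 table. Per the submitters' processing notes, the tools were HISAT2 2.1.0, Trimmomatic 0.38, edgeR, FastQC and StringTie 2.1.3b, and the build was mm10; the library kit, strand setting and treatment of multiply mapped reads are not settled by the sources used here. The lowest deposited count was 1. Genes were kept with filterByExpr (minimum count 10), leaving 15651. All were tested with the edgeR 4.0.16 quasi-likelihood test (R 4.3.3, TMM, robust, group only, threshold 0.05). The members and lists were chosen with earlier results of these data known, so no test was made over a list. Genes were named by subunit extremes, role list, missed calls, the smallest p per pathway list in each direction, and highest level per kilobase; others are examples picked from the lists. GENCODE M21 gave lengths, coding sequences and overlaps, and RefSeq GRCm38.p6 the start windows (64 of 89 members matched). On simulated counts for this comparison (15627 genes) the test recovered 31.8% of 44 changes of 1.2-fold. It recovered 79.5% of 39 changes of 1.5-fold and 93.0% of 43 changes of 2-fold. These shares were not worked out for the ribosomal protein genes alone. Alternatives were other scalings and filters, DESeq2 1.42.0, limma 3.58.1 voom, length and GC corrections, a replicate block and left-out libraries. The values of a few single genes are not reported here.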

Additional observations from a re-analysis of the deposited data

How the results depend on the processing

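Across the other scalings, filters, tests and left-out libraries, between 79 and 82 of the 89 members passed as lower and 1 or 2 as higher; the exceptions were the length correction (69 lower, 2 higher) and the test against 1.2-fold (57 lower). Over all 15651 genes tested, 5508 passed as lower with library totals and 3968 with the DESeq2 Wald test. Without the paralogs by name 75 members passed as lower and 0 as higher by the edgeR test. With upper-quartile scaling the small subunit median was -0.39. With library totals the subunit medians were -0.44 (large) and -0.43 (small), where the median of all genes moved by -0.07. With the length correction they were -0.22 and -0.21. Leaving out 1 library gave -0.40 to -0.34 for the large subunit, -0.38 to -0.32 for the small subunit and 0.0147 to 0.0398 for their difference. It gave -1.28 to -1.20 percentage points for the share of counts (-1.24 with all libraries) and 0.00508 to 0.0264 for the difference in the small to large ratio. Without the 5 members with the most counts the share differed by -1.07 points, and without Rps9 the ratio differed by 0.00303.

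The sign changed for 5 members that had not passed the test. With 1 library left out the log2 fold change ran from -0.30 to 0.12 for Rps9, from -0.080 to 0.061 for Rps27 and from -0.72 to 0.10 for Rpl37rt. With the length correction it was 0.078 for Rps9, 0.19 for Rps27, 0.050 for Rps27rt and 0.032 for Rps3a3, and, for Fau, which had passed as lower, 0.073. With the GC correction it was 0.0097 for Rps27. The cause was not tested. Of 917 values of 54 named members under the alternatives, 880 kept their direction and side of the threshold.

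With the replicate number as a block, 81 members passed as lower and 1 as higher, and the subunit medians were -0.37 and -0.36. Same-numbered libraries had a correlation of deviations of 0.035, and the labels do not say that a number marks a shared animal or day. The counts of abundant members limit precision little; for the copies under 100 counts, such as Rpl32l and Rps3a3, depth does.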
